A study of Mus musculus with 4 samples.

Results

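The genes described here encode proteins that glands and mucosal surfaces secrete or display: mucins, mucin-like proteins, secretoglobins, kallikreins, caseins, beta-defensins, regenerating (Reg) proteins and BPI fold proteins. They were chosen by symbol alone, as every protein-coding gene of the table whose name carries one of these family prefixes, with the casein kinases left out. The rule found 143 genes among 22046 protein-coding genes and 54532 gene identifiers in all. They comprised 12 mucins, 3 mucin-like genes, 34 secretoglobins, 26 kallikreins, 5 caseins, 42 beta-defensins, 7 Reg genes and 14 BPI fold genes. RNA was sequenced in bulk from 2 sorted populations of mouse thymic epithelial cells: medullary cells (mTEC), gated as Ly51 negative and UEA1 positive, and cortical cells (cTEC), gated as Ly51 positive and UEA1 negative. The 4 groups, each of 1 library, were mTEC and cTEC of SCD1 knockout mice and mTEC and cTEC of their littermate controls, labelled WT. All mice were of the C57BL/6 strain. The age of the mice, the number of mice per library and the deleted part of Scd1 are not stated in the labels.

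Mucins are large O-glycosylated proteins that form mucus gels or coat the apical membrane. Secretoglobins are small dimeric proteins of airway, gland and tear secretions, caseins are the main milk proteins, and tissue kallikreins are serine proteases of saliva, skin and other epithelia. Beta-defensins, Reg proteins and BPI fold proteins include antimicrobial peptides and lectins of the gut, airway, mouth and male reproductive tract. In the thymus, mTEC are known for transcribing many genes of other tissues at low level, in part under the regulators Aire and Fezf2, so that developing T cells meet those proteins as self antigens, whereas cTEC support the earlier steps of T cell selection.

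Read totals ran from 15740383 in control cTEC to 18151725 in knockout cTEC, and with 1 library per group no p-value was computed. Levels are read counts scaled to library size with the trimmed mean of M-values (CPM), with exact 95% Poisson intervals, and ratios are log2 ratios with exact 95% binomial intervals. Both kinds of interval cover counting error only and say nothing about variation between mice or sorts. Scd1, the targeted desaturase gene, was at 76.9 and 15.8 CPM in control and knockout mTEC and 21.3 and 4.16 in control and knockout cTEC. Most listed cell type markers followed the labels of the libraries. In each genotype 10 of 12 listed mTEC markers were higher in mTEC and 11 of 12 listed cTEC markers were lower. Trp63, on the mTEC list, was lower in knockout mTEC than in knockout cTEC. Aire stood at 1267 and 1263 CPM in control and knockout mTEC and at 37.6 and 33.7 CPM in the corresponding cTEC, and Fezf2 at 389 and 418 against 59.3 and 47.3 CPM. In bulk samples, fewer cells of a type and less RNA per cell cannot be told apart, and this holds for every level given here.

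All 8 families were read in both populations, with more of their genes detected in mTEC than in cTEC. With at least 10 reads taken as detected, 82 of the 143 genes (57.3%) were detected in control mTEC and 82 in knockout mTEC, against 36 (25.2%) in control cTEC and 34 (23.8%) in knockout cTEC. Over all protein-coding genes the same shares were 75.6%, 75.9%, 65.4% and 65.7%. Detection in both mTEC libraries and neither cTEC library was found for 39 of the 143 genes (27.3%), compared with 8.25% of all protein-coding genes. A further 29 genes (20.3%) were detected in all 4 libraries, compared with 63.1% of all protein-coding genes. Another 12 were detected in both mTEC and 1 cTEC library, and 4 in 1 mTEC library only. No gene of the families was detected in a cTEC library without both mTEC libraries, and only 1.47% of all protein-coding genes were. The remaining 59 genes (41.3%) were detected nowhere, compared with 22.0% of all protein-coding genes. Of these 59, 25 were without a single read. For a count of 0 a floor of 3 counts was set, which is 0.171 to 0.196 CPM in these libraries.

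Detection split sharply by family. In control mTEC all 12 mucins, all 3 mucin-like genes, all 26 kallikreins and all 5 caseins were detected, with 6 of 7 Reg genes (all but Reg3d) and 13 of 14 BPI fold genes (all but Bpifa3). By contrast, only 7 of 34 secretoglobins and 10 of 42 beta-defensins were. In control cTEC the counts were 10 mucins, 2 mucin-like genes, 13 kallikreins, 1 casein, 3 Reg genes, 2 BPI fold genes, 2 secretoglobins and 3 beta-defensins. Knockout mTEC had the same counts as control mTEC except for 6 secretoglobins and 11 beta-defensins. All 25 genes without a read were secretoglobins (16) or beta-defensins (9). The limit of 10 reads was not adjusted for gene length, which differs between the families. In control mTEC, Muc16, of 26350 bases, counted as detected with 29 reads, at 0.0646 CPM per kilobase. Defb5, of 207 bases, did not with 9 reads, at 2.55 CPM per kilobase. The part of gene length in the detected shares, here and beside all protein-coding genes, was not tested.

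**Figure D1:**
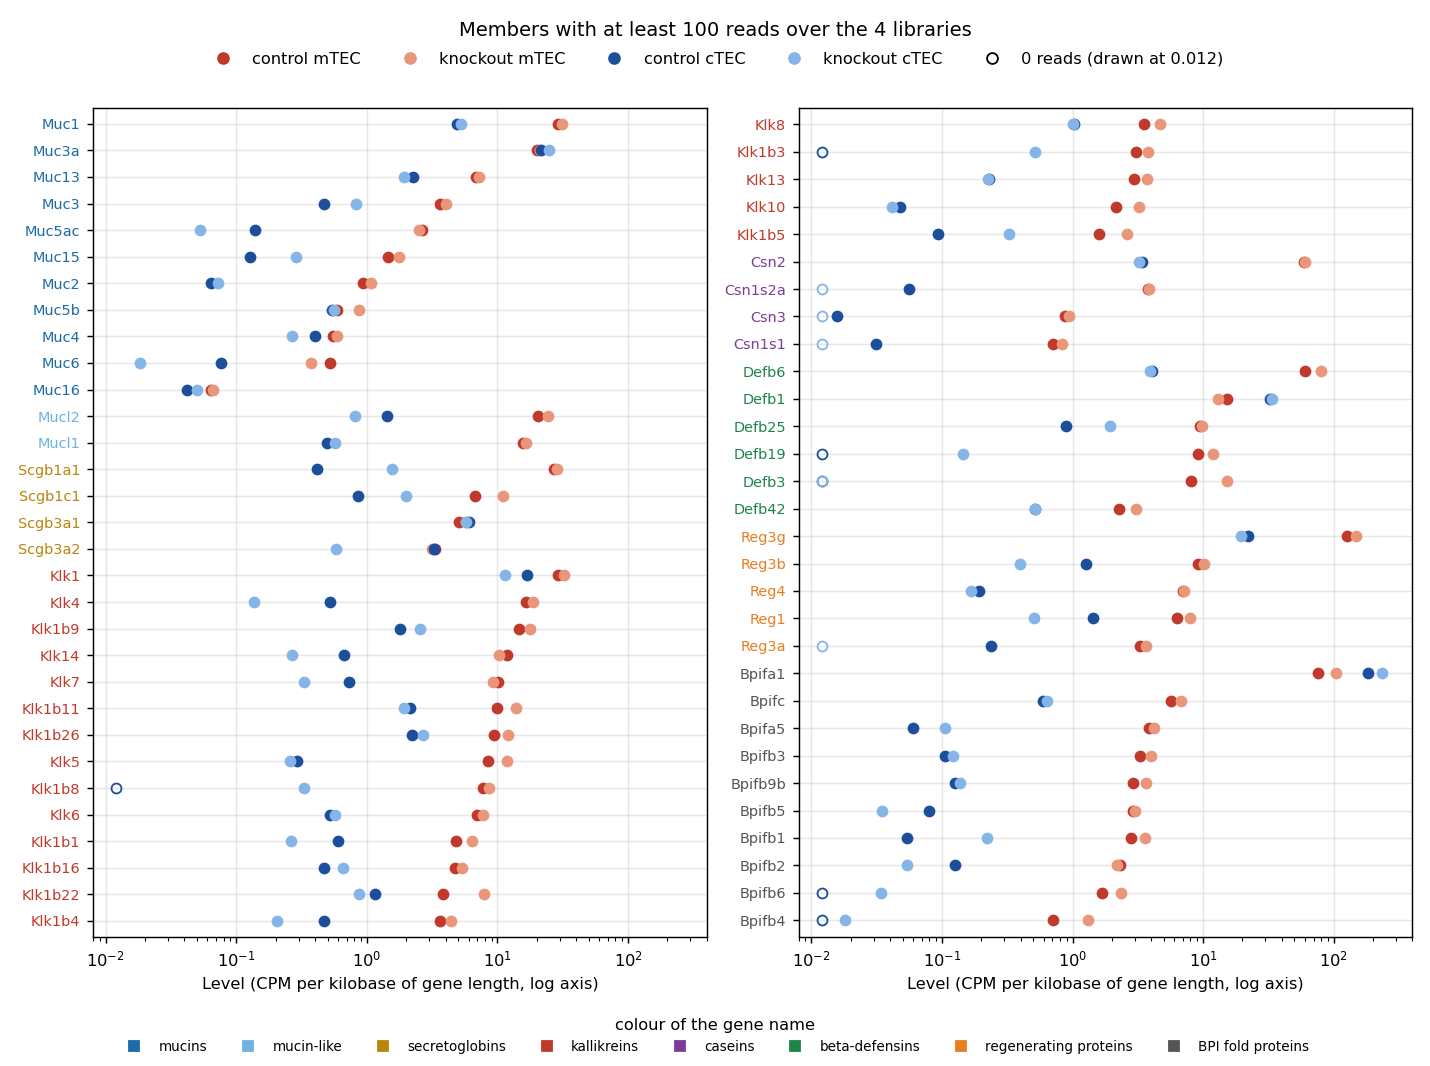
Level of each of the 61 genes with at least 100 reads over the 4 libraries, in CPM per kilobase of the deposited gene length on a log axis, with 1 point per library and open circles for 0 reads. The 2 mTEC points lie close together and mostly to the right of both cTEC points, while Bpifa1 and Defb1 and, by little, Muc3a and Scgb3a1 have both cTEC points to the right.

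Between genes, levels were compared per kilobase of gene length. In control mTEC the order by CPM per kilobase was Reg3g at 126, Bpifa1 at 75.5, Defb6 at 59.9, Csn2 at 59.5, Klk1 at 29.3 and Muc1 at 28.9. Defb6 and Csn2 cannot be ordered, since they differ by less than the counting error of Defb6. The Csn2 value depends on the length taken: with the principal GENCODE transcript of each gene instead of the deposited gene length, Reg3g came first at 346 CPM per kilobase and Csn2 second at 310, ahead of Bpifa1 at 105. In control cTEC the order was Bpifa1 at 183, Defb1 at 32.6, Reg3g at 22.2, Muc3a at 21.6 and Klk1 at 16.8 CPM per kilobase of gene length. Reg3g, Bpifa1 and Klk1 were thus among the leading 5 in both control libraries, in another order. By gene length Muc3a stood above Reg3g in knockout cTEC. With the principal transcript, however, Reg3g was second after Bpifa1 in both cTEC libraries, at 60.8 and 53.6 CPM per kilobase in control and knockout, above Defb1 at 32.6 and 33.4, with Muc3a next.

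Summed over all 143 genes, the families took 1414 (1397 to 1432) and 1595 (1576 to 1614) CPM in control and knockout mTEC and 516 (504 to 527) and 584 (573 to 595) in control and knockout cTEC. A few genes carried these sums. Csn2 made up 29.1% of the sum in control mTEC, and Bpifa1 54.7% in control cTEC. Without Csn2, Reg3g and Bpifa1 the sums were 619 and 702 CPM in control and knockout mTEC and 163 and 158 CPM in control and knockout cTEC. The ratio of mTEC to cTEC was then 3.80-fold in control and 4.46-fold in knockout, compared with 2.74-fold and 2.73-fold over all members.

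**Figure D2:**
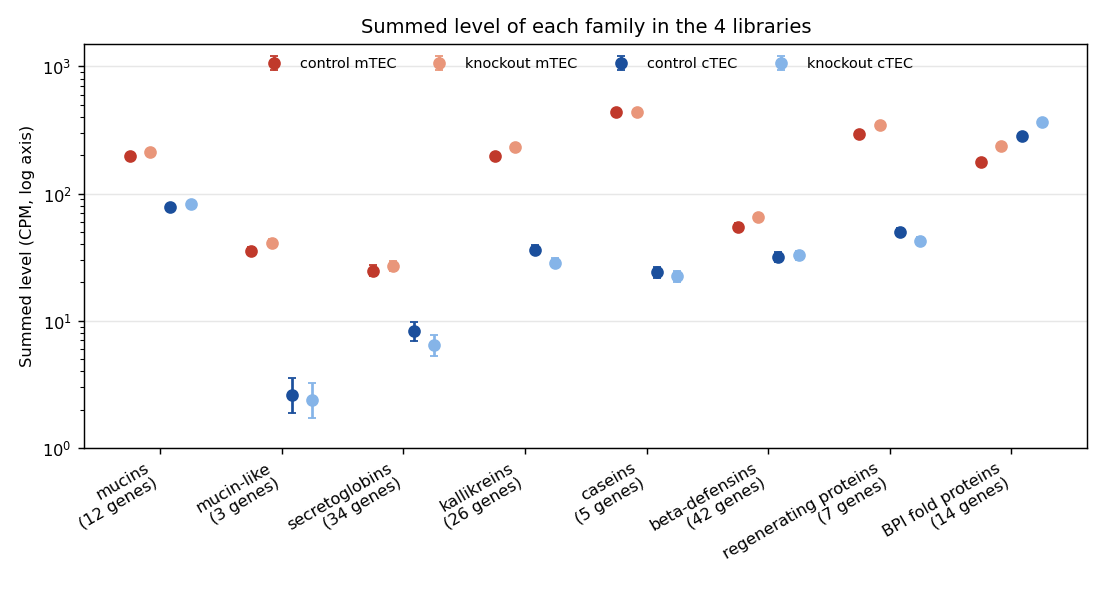
Summed CPM of each family in the 4 libraries on a log axis, with 95% Poisson intervals that cover counting error only. Caseins reach 435 and 441 CPM in control and knockout mTEC against 24.1 and 22.4 CPM in cTEC, and the BPI fold family is the one whose sum is higher in cTEC, at 285 and 366 against 177 and 235 CPM.

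The comparison of mTEC with cTEC asked which of these genes separate the 2 populations. Genes were counted as higher or lower when they had at least 50 reads over the 2 libraries, a log2 ratio of at least 1 in size and an interval that excluded 0. The minimum is taken over the pair, so a gene can pass it through its mTEC reads alone. Defb19 and Klk1b8, for example, had 61 and 113 reads in control mTEC and 0 in control cTEC. In the control libraries 54 of the 143 genes had enough reads, and 46 were higher in mTEC, where 19% of all 15747 genes with enough reads were. Only Bpifa1 and Defb1 were lower in mTEC, against 8.53% of all genes, and 6 genes passed in neither direction. In the knockout libraries 56 of 62 were higher (19.8% of 15962 genes overall) and the same Bpifa1 and Defb1 were lower (8.96% overall). The median log2 ratio of the members was 3.33 in control and 3.98 in knockout, beside -0.06 and -0.08 over all genes. Setting the genes with 0 reads in cTEC at a floor of 3 counts could not move either member median, because those genes stayed above it. The control pair and the knockout pair share no library: of the 54 members with enough reads in both, 46 (85.2%) were higher in both, compared with 17.0% of all genes. Among members with at least 50 reads in control cTEC alone, Csn2, Reg3g, Muc1 and Muc13 were higher in control mTEC and Bpifa1 and Defb1 lower. Klk1, Muc3a, Muc4, Muc5b and Scgb3a1 also had that many and passed in neither direction. All other members counted as higher in control had under 50 reads in control cTEC and reached the minimum mainly through mTEC reads. The control count and median and the share higher in both genotypes rest largely on such genes. The shares over all genes are a description and were not matched for read depth.

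**Figure D3:**
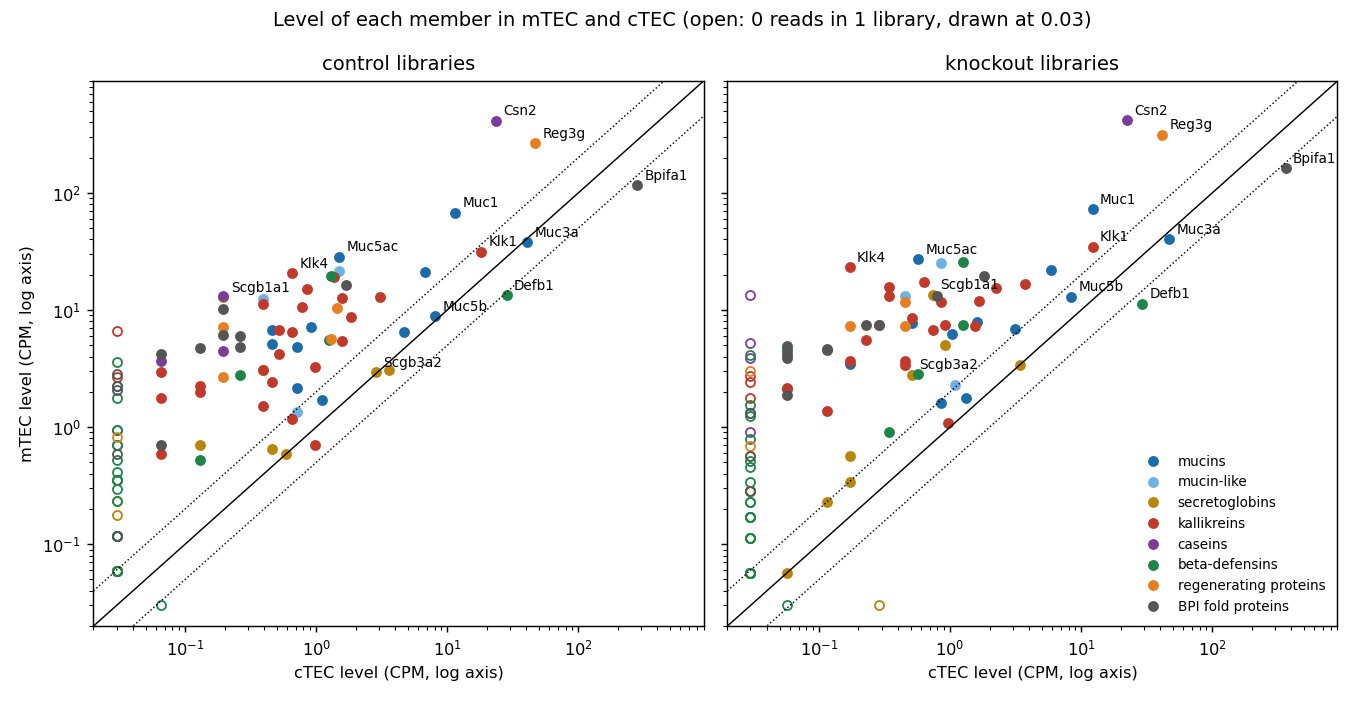
Level of each gene in mTEC (vertical) against cTEC (horizontal), in CPM on log axes, for the control pair and the knockout pair, coloured by family, with open circles where 1 library had 0 reads. The solid line marks equal levels and the dotted lines a 2-fold difference, and most genes lie above the upper dotted line in both panels while Bpifa1 and Defb1 lie below the lower one.

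The caseins were the family with the largest ratio of summed levels, 18.0-fold higher in control mTEC than in control cTEC and 19.7-fold in knockout. Csn2 encodes beta-casein, a major protein of mouse milk, and supplied 94.9% of the family's level in control mTEC. It gave 7026 and 7339 reads in control and knockout mTEC and 361 and 393 in control and knockout cTEC, or 412, 418, 23.6 and 22.4 CPM. The mTEC and cTEC values are far apart in both genotypes, with log2 ratios of 4.12 (3.97 to 4.28) and 4.22 (4.07 to 4.37), and within each population the genotypes differ by less than counting error. Csn1s2a, an alpha-S2-type casein, gave 225 and 235 reads in control and knockout mTEC, and 3 and 0 reads in the corresponding cTEC. Csn1s1, the alpha-S1 casein, gave 76 and 92 reads in mTEC and 3 and 0 in cTEC, and Csn3, the kappa-casein that stabilises the micelle, gave 62 and 68 in mTEC and 1 and 0 in cTEC. In knockout Csn1s2a, Csn1s1 and Csn3 were 78.2-fold, 30.6-fold and 22.6-fold higher in mTEC with cTEC set at a floor of 3 counts. These folds leave out the counting error of mTEC, and the log2 intervals began at 5.98, 4.61 and 4.16. Csn1s2b was the lowest casein, with 16 reads in each mTEC library and none in cTEC.

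The 5 casein genes lie in 1 cluster at chr5:87666208-87932665 (mm10). RefSeq promoter sequences (GRCm38.p6, from 250 bases before to 50 bases after the start) were found for 3 of them, Csn2, Csn1s1 and Csn1s2a, and are shown because each holds exactly 1 copy of TTCNNNGAA, printed in capitals. The pattern is symmetric, so each copy matches it on both strands, although the middle letters of the printed copies differ between the strands. It is the form of site that STAT5, the prolactin-activated factor of the mammary gland, is known to bind. The sequences read 5′ to 3′ on the gene's strand, from chr5:87699376-87699675 (minus) for Csn2, chr5:87665958-87666257 (plus) for Csn1s1 and chr5:87774200-87774499 (plus) for Csn1s2a.
Csn2 promoter: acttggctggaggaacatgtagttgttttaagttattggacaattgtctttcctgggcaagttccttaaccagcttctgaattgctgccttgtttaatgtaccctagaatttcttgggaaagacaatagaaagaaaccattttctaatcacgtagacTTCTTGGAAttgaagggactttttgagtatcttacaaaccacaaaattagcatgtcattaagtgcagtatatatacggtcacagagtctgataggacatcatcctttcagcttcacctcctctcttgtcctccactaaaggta
Csn1s1 promoter: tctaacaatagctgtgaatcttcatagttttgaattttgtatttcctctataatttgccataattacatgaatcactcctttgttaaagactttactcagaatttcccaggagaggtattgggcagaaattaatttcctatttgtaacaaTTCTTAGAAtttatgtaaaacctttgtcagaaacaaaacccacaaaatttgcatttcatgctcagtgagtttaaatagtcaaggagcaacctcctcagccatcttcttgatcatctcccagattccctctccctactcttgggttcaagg
Csn1s2a promoter: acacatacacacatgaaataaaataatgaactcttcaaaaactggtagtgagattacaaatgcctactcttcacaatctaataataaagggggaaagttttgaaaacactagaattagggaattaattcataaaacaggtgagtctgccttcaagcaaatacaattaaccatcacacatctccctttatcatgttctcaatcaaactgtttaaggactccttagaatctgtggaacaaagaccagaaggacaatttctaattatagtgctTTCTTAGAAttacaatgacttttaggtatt
The motif begins 93 bases before the start in Csn2, 100 bases before it in Csn1s1 and 20 bases after it in Csn1s2a. The RefSeq starts of Csn2 and Csn1s2a lie 205 and 117 bases from the gene starts in the deposited table. Of all 32841 mouse promoters of this length, not cut to 1 per gene, 8.30% hold the motif, and of the 114 member promoters found 12.3% do. A match is a description of these letters and not evidence of a bound site.

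Among the Reg genes, which encode secreted C-type lectins of gut and pancreas, Reg3g stood far above the rest. Reg3g, a lectin that kills Gram-positive bacteria in the intestine, gave 4542 and 5513 reads in control and knockout mTEC and 716 and 725 in control and knockout cTEC, or 267, 314, 46.8 and 41.4 CPM. Both mTEC libraries are above both cTEC libraries, by log2 ratios of 2.51 (2.39 to 2.62) in control and 2.92 (2.81 to 3.04) in knockout. It made up 90.8% of the family's reads in control mTEC. Reg3b, a related gut lectin, gave 178 and 205 reads in control and knockout mTEC and 22 and 8 in cTEC, and Reg1, a pancreatic stone protein, 97 and 127 against 20 and 8. Both were higher in mTEC in each genotype. Reg4 gave 123 and 128 reads in mTEC and 3 in each cTEC library, and Reg3a gave 46 and 53 against 3 and 0, with too few reads for the size rule in control. Reg2 gave 14 and 12 reads in mTEC and none in cTEC.

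The 6 Reg genes from Reg3b to Reg3g lie in a row at chr6:78370657-78468872, and 4 of the 7 Reg promoters hold a TATAAA box on either strand. The promoters of Reg3g (chr6:78468825-78469124, minus) and Reg3b (chr6:78370635-78370934, plus) are shown because these are the family's 2 highest genes by reads, with TATAAA in capitals and a copy on the other strand of Reg3g as TTTATA.
Reg3g promoter: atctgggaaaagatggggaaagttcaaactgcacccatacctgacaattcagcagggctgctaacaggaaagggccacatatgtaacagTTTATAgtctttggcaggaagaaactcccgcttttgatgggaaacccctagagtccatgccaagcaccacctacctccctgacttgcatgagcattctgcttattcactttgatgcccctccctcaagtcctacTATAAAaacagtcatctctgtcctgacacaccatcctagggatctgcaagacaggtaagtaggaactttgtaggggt
Reg3b promoter: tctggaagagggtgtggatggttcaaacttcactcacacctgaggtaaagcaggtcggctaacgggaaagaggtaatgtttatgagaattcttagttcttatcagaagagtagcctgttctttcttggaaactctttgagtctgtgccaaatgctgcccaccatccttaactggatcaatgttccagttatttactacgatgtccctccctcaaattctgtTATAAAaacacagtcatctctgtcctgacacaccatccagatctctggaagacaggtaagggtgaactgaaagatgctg
The box begins 27 bases before the start in Reg3g and 29 bases before it in Reg3b. The Reg3b start used by RefSeq lies 228 bases from the deposited gene start.

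The BPI fold family divided into 1 gene that was higher in cTEC and a series of lower genes read mainly in mTEC. Bpifa1, also known as SPLUNC1, is a secreted protein of the upper airway that acts on bacteria and on sodium channels. It gave 1987 and 2834 reads in control and knockout mTEC and 4313 and 6360 in control and knockout cTEC, or 117, 161, 282 and 363 CPM. Both cTEC libraries are above both mTEC libraries, with log2 ratios of mTEC to cTEC of -1.27 (-1.35 to -1.20) in control and -1.17 (-1.23 to -1.11) in knockout. Bpifa1 supplied 99.0% of the family's reads in each cTEC library and 65.7% in control mTEC, so the family sum was lower in mTEC, while without Bpifa1 it was 60.8 and 73.6 CPM in control and knockout mTEC against 2.88 and 3.59 CPM in cTEC. Its promoter (chr2:154142630-154142929, plus) holds TATAAA 29 bases before the start, shown in capitals.
Bpifa1 promoter: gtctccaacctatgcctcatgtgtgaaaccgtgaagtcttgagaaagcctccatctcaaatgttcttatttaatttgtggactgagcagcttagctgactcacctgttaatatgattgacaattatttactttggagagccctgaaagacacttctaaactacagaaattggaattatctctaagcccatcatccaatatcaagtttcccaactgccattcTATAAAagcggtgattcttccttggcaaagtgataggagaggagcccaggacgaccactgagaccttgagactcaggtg
The next genes by reads went the other way. Bpifc gave 276 and 341 reads in control and knockout mTEC and 26 and 32 in cTEC, and Bpifb1, the long airway relative of Bpifa1, gave 173 and 230 against 3 and 14. Bpifb3, Bpifb9b, Bpifb5, Bpifb2 and Bpifa5 had between 72 and 132 reads in each mTEC library and between 1 and 5 in each cTEC library, and all 5 were higher in mTEC in both genotypes. Bpifb6 and Bpifb4 gave 48 and 38 reads in control mTEC and none in control cTEC. With cTEC set at a floor of 3 counts they were 14.3-fold and 11.4-fold higher in mTEC, and their log2 intervals began at 3.49 and 3.14. The 13 genes other than Bpifc lie side by side at chr2:153875045-154320646. Bpifb9a and Bpifb9b share 71.4% of their 50-base stretches with another gene, so reads may be split between them in a way that is not stated in the labels.

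All 26 kallikreins were detected in both mTEC libraries. They form an unbroken row on chromosome 7, chr7:43690418-44229618, and encode secreted serine proteases. Summed, they reached 196 and 231 CPM in control and knockout mTEC and 36.2 and 28.7 in control and knockout cTEC. The family was the most even of the 8: its top gene, Klk1, held 16.1% of the reads in control mTEC. Klk1, tissue kallikrein, which releases kinins from kininogen, gave 537 and 607 reads in control and knockout mTEC and 277 and 214 in control and knockout cTEC, or 31.5, 34.5, 18.1 and 12.2 CPM. Its mTEC level exceeded the cTEC level by a log2 ratio of 0.80 (0.59 to 1.01) in control, under the size rule, and by 1.50 (1.27 to 1.73) in knockout. Klk1 is thus the kallikrein with the highest cTEC level, and 50% of the family's reads in control cTEC were its own.

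The other kallikreins had lower cTEC levels. Klk4, the protease of enamel maturation, gave 352 and 409 reads in control and knockout mTEC and 10 and 3 in cTEC. Klk5, Klk7 and Klk14, which cut the cell contacts of the shedding skin surface, gave 191, 328 and 255 reads in control mTEC and 6, 21 and 13 in control cTEC. Klk6 gave 180 against 12 reads, Klk13 115 against 8, and Klk8, known as neuropsin, 93 against 24 in the control pair. Klk10 gave 50 and 78 reads in mTEC and 1 in each cTEC library. These 8 genes were higher in mTEC in both genotypes. Klk11 stood apart, with 12 and 19 reads in control and knockout mTEC and 15 and 17 in cTEC, levels that overlap within counting error.

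The Klk1b genes, a rodent-specific expansion next to Klk1, were read as widely. Klk1b26 gave 222 and 292 reads in control and knockout mTEC and 47 and 65 in cTEC, Klk1b9 215 and 273 against 24 and 39, and Klk1b11 147 and 210 against 28 and 29. Klk1b9 and Klk1b22 encode binding proteins of epidermal growth factor, and Klk1b3 and Klk1b4 encode subunits of the nerve growth factor complex of the mouse submandibular gland. Klk1b8 gave 113 reads in control mTEC and none in control cTEC, and 130 against 5 in knockout. In control it was 33.8-fold higher in mTEC with cTEC set at a floor of 3 counts, and its log2 interval began at 4.76. Each of these, except Klk1b3, was higher in mTEC in both genotypes, as were Klk1b16 and Klk1b1, and Klk1b3 and Klk1b5 reached enough reads for the rule only in knockout, where they were higher too. Summed, Klk1 and the Klk1b genes had a mTEC to cTEC ratio of 3.44-fold in control and 5.24-fold in knockout, and the other kallikreins 12.5-fold and 20.1-fold.

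Single Klk1b values carry an uncertainty that counting intervals do not show. From 10.1% (Klk1b16) to 33.9% (Klk1b24) of the 50-base stretches of each Klk1b transcript, and 28.4% of those of Klk1, occur letter for letter in another gene of the row. One such stretch, from a coding exon of Klk1b4 at chr7:44210800-44210849 (plus), is found in 8 genes of the table: Klk1b3, Klk1b4, Klk1b8, Klk1b9, Klk1b16, Klk1b22, Klk1b26 and the pseudogene Klk1b14-ps. It is shown, in lower case with nothing marked, because a read that falls inside it cannot be assigned to 1 of them.
Klk1b4 shared stretch: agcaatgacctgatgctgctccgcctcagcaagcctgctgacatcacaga
How the counting handled such reads is not stated in the labels. Klk14 and Klk8 also overlap exons of 2310002F09Rik on the opposite strand, and Klk15 those of Gm44756, and without a stated strand setting such reads cannot be told apart.

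**Figure D4:**
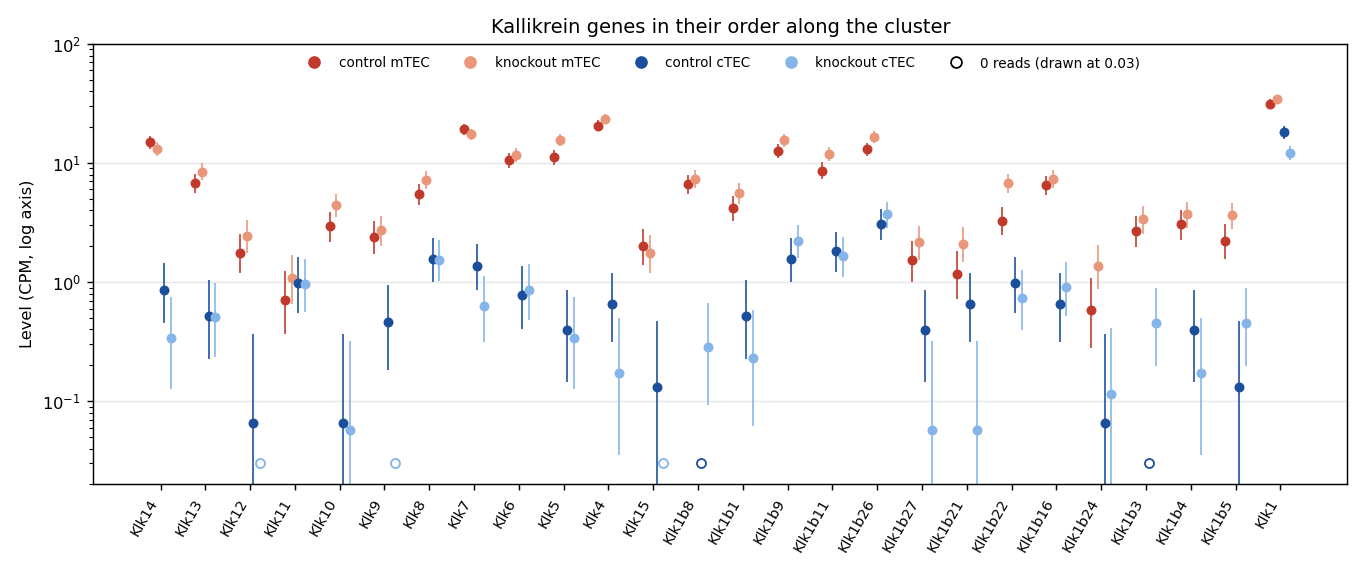
CPM of the 26 kallikrein genes on a log axis, in their order along the chromosome 7 cluster, with 95% Poisson intervals for counting error and open circles for 0 reads. Every gene has both mTEC points at 0.587 CPM or above, and Klk1, at the right end, has the highest points in all 4 libraries.

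The mucins held genes with large differences between the populations and others, Muc5b and Muc3a, whose control libraries differed by less than counting error. Muc1, a transmembrane mucin of most glandular epithelia, gave 1156 and 1278 reads in control and knockout mTEC and 176 and 215 in control and knockout cTEC, or 67.8, 72.7, 11.5 and 12.3 CPM. Its log2 ratios were 2.55 (2.33 to 2.80) in control and 2.57 (2.36 to 2.78) in knockout, 2 intervals that overlap. Muc5ac, the gel-forming mucin of stomach and airway surface, gave 487 and 476 reads in control and knockout mTEC and 23 and 10 in cTEC. Muc2, the gel-forming mucin of intestinal goblet cells, gave 114 and 135 against 7 and 9, and Muc6, that of gastric glands, 83 and 61 against 11 and 3. All 3 were higher in mTEC in each genotype. Muc5b, the fourth gel-forming mucin of the cluster at chr7:141633456-141873084 and the main one of the lower airway, did not follow them: it gave 151, 228, 124 and 147 reads in control mTEC, knockout mTEC, control cTEC and knockout cTEC. The log2 ratio was 0.13 (-0.23 to 0.48) in control and 0.63 (0.32 to 0.94) in knockout.

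The membrane mucins varied in the same way. Muc3a gave 644 and 704 reads in control and knockout mTEC and 624 and 824 in cTEC. Its log2 ratios were -0.11 (-0.27 to 0.05) and -0.23 (-0.38 to -0.08), and it was the highest mucin by reads in cTEC. Its neighbour Muc3 gave 121 and 138 against 14 and 28. Muc13, an intestinal membrane mucin, gave 356 and 386 against 104 and 103, and Muc15 88 and 110 against 7 and 18. These last 3 were higher in mTEC in both genotypes. Muc4 gave 110 and 122 reads against 72 and 55, higher by the rule in knockout only, with log2 ratios of 0.45 (0.01 to 0.90) in control and 1.14 (0.68 to 1.63) in knockout. Muc16 and Muc20 stayed under 40 reads in every library. Exons of Muc4 and Muc20 overlap on opposite strands, as do those of Muc13 and Gm15657 and of Muc15 and Ano3. Of the mucin-like genes, Mucl2 gave 367 and 445 reads in mTEC against 23 and 15 in cTEC and Mucl1 213 and 231 against 6 and 8, while Mucl3 gave 23 and 40 against 11 and 19.

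Few secretoglobins were read, and the best-read ones are known from the airway. Scgb1a1, the secretory protein of airway club cells, gave 218 and 237 reads in control and knockout mTEC and 3 and 13 in control and knockout cTEC, or 12.8, 13.5, 0.196 and 0.742 CPM. It was higher in mTEC by log2 ratios of 5.81 (4.46 to 8.31) and 4.13 (3.38 to 5.12). Scgb1c1 gave 52 and 88 reads in mTEC against 6 and 16, and overlaps exons of C330022C24Rik on the opposite strand. Scgb3a1, a further airway secretoglobin, showed no difference beyond counting error: 52, 60, 55 and 60 reads in control mTEC, knockout mTEC, control cTEC and knockout cTEC. Scgb3a2, its relative, gave 50, 49, 44 and 9 reads, so that knockout cTEC alone stood low. The 29 secretoglobins of the cluster at chr7:31290508-34100837, the Scgb1b and Scgb2b genes that encode the androgen-binding proteins of mouse saliva and tears, were hardly read. Of these, 2 were detected in control mTEC, 1 in knockout mTEC and none in cTEC, and Scgb1b27, the highest, gave 11, 10, 7 and 3 reads. Summed over all Scgb1b and Scgb2b genes, the level was 2.17 and 1.65 CPM in control and knockout mTEC and 1.05 and 0.799 CPM in cTEC. Of the 34 secretoglobins, 18 share at least 25% of their 50-base stretches with another gene, and all 18 have under 5 reads over the 4 libraries. They include 14 of the 16 secretoglobins without a read, of which Scgb1b15, Scgb1b17 and Scgb2b17 share 100% of their stretches. The 9 beta-defensins without a read all share less than 25%. The part of shared stretches in the low counts was not tested, and how reads shared by several genes were counted is not stated in the labels.

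The beta-defensins, small cationic antimicrobial peptides, held 2 well-read genes with opposite patterns. Defb6 gave 330 and 449 reads in control and knockout mTEC and 20 and 22 in control and knockout cTEC, or 19.4, 25.6, 1.31 and 1.25 CPM, with log2 ratios of 3.85 (3.24 to 4.62) and 4.32 (3.73 to 5.04). Defb1, a defensin made constitutively by kidney and airway epithelium, gave 228, 199, 435 and 510 reads in the same order, or 13.4, 11.3, 28.5 and 29.1 CPM. Both cTEC libraries lie above both mTEC libraries, with log2 ratios of -1.09 (-1.33 to -0.85) and -1.36 (-1.60 to -1.12), and Defb1 made up 90.4% of the family's reads in control cTEC. With library totals in place of the scaled sizes, the control ratio of Defb1 was -0.996 and just missed the rule. Defb42, an epididymal defensin, gave 94 and 130 reads in mTEC against 19 and 22, Defb19 61 and 82 against 0 and 1, and Defb25 47 and 50 against 4 and 10. All 3 were higher in mTEC in both genotypes. Defb3, an inducible epithelial defensin, gave 38 and 73 reads in control and knockout mTEC and none in either cTEC library. With cTEC set at a floor of 3 counts it was 11.4-fold and 24.3-fold higher in mTEC, and the log2 intervals began at 3.14 and 4.27. Of the 42 genes, 30 were detected in no library.

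Knockout and control were compared within each population. In mTEC 70 of the 143 genes had at least 50 reads over the pair, and 1 was higher in knockout by the size rule, where 0.504% of 16466 genes were. None was lower, against 0.431% of all genes. The gene was Klk1b22, with 56 reads in control and 119 in knockout, or 3.29 and 6.77 CPM, a log2 ratio of 1.04 (0.57 to 1.53). Klk1b22 shares 13.3% of its 50-base stretches with other genes, and in cTEC it gave 15 and 13 reads. Defb3, with 38 and 73 reads and a log2 ratio of 0.89 (0.31 to 1.50), and Bpifb4, with 38 and 72 and a ratio of 0.87 (0.29 to 1.48), came next in size and did not pass.

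Small differences in mTEC lay mostly on 1 side. The log2 ratio was above 0 for 59 of the 70 genes, with a median of 0.19 beside 0.01 over all genes, of which 51.9% were above 0. For 20 members the interval lay wholly above 0, where 11.6% of all genes did, and for none below 0, where 10.2% did. Of these 20, 9 were kallikreins, among them Klk1b genes, which share stretches of sequence. A further 4 were BPI fold genes and 3 beta-defensins. The mucins, mucin-like genes, secretoglobins and Reg genes gave 1 each and the caseins 0. The 20 included Bpifa1 at 0.47 (0.39 to 0.55), Klk5 at 0.49 (0.22 to 0.76), Defb6 at 0.40 (0.19 to 0.61), Muc5b at 0.55 (0.25 to 0.86) and Reg3g at 0.24 (0.18 to 0.29). Csn2 was not among them, at 0.02 (-0.03 to 0.07). Aire stood at -0.01 and Fezf2 at 0.10 in the same comparison. Beside these values, the 12 cTEC markers were all above 0 with a median of 0.19, the thymocyte markers had a median of 0.27 with 11 of 12 above 0, and the endothelial markers one of 0.55 with 5 of 6 above 0. The mTEC markers had a median of 0.06 with 7 of 12 above 0, and the fibroblast and pericyte markers 0.06 with 6 of 8. For myeloid and dendritic cell markers it was 0.13 with 6 of 10 above 0, and for B cell markers 0.23 with 3 of 5. Summed cTEC markers were at 5563 CPM in control mTEC and 6402 in knockout mTEC, and thymocyte markers at 326 and 385 CPM. The part of the cells behind any of these lists in the small differences was not tested, and 1 library per group gives no measure of the variation between libraries.

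**Figure D5:**
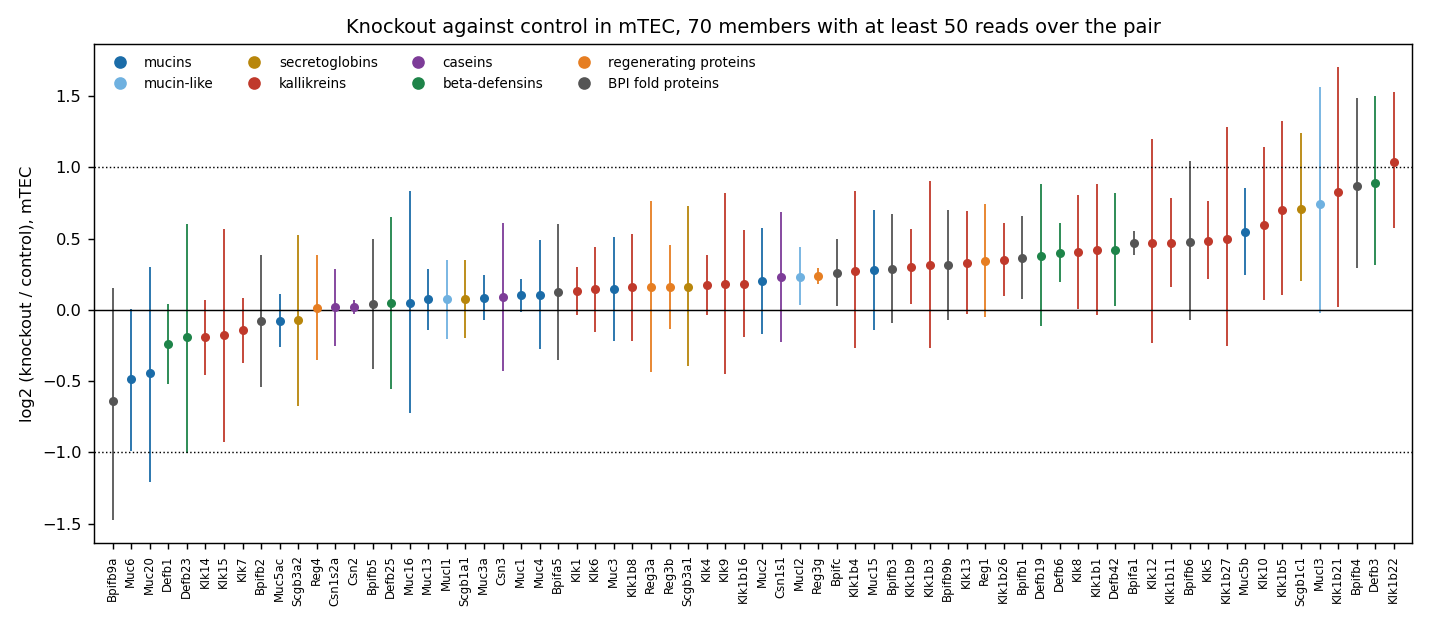
Log2 ratio of knockout to control in mTEC for the 70 genes with at least 50 reads over the pair, sorted by value, with 95% binomial intervals for counting error and dotted lines at a 2-fold difference. The points run from -0.64 (Bpifb9a) to 1.04 (Klk1b22), 59 lie above 0, and the interval lies wholly above 0 for 20 and wholly below 0 for none.

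In cTEC only 17 of the 143 genes had enough reads for the same comparison. None was higher in knockout, against 0.492% of 14445 genes, and 1 was lower, against 0.706%. This was Scgb3a2, with 44 reads in control cTEC and 9 in knockout cTEC, or 2.88 and 0.513 CPM, a log2 ratio of -2.43 (-3.71 to -1.43). In mTEC the same gene gave 50 and 49 reads. The median over the 17 genes was -0.03 beside 0.01 over all genes. Intervals lay above 0 for 2 members, Bpifa1 at 0.36 (0.31 to 0.42) and Muc3a at 0.20 (0.05 to 0.36), where 16.3% of all genes did, and below 0 for 4, Scgb3a2, Klk1 at -0.57 (-0.83 to -0.31), Muc4 at -0.58 (-1.12 to -0.06) and Reg3g at -0.18 (-0.33 to -0.03), where 14.5% did. By family, the summed kallikreins were at a log2 ratio of 0.24 (0.17 to 0.30) in mTEC and -0.34 (-0.51 to -0.16) in cTEC. The Reg genes stood at 0.23 (0.18 to 0.28) and -0.24 (-0.38 to -0.09), and the BPI fold genes at 0.40 (0.34 to 0.47) and 0.36 (0.31 to 0.42). In control cTEC Reg3g held 93.7% of the Reg reads, Bpifa1 99.0% of the BPI fold reads and Klk1 50% of the kallikrein reads. The Reg and BPI fold ratios in cTEC are thus mostly those of Reg3g and Bpifa1. Whether the genotype ratios differ between the populations was not tested, since no group has a replicate. In knockout cTEC the summed mTEC markers were at 3285 CPM and in control cTEC at 3625, with Aire at a log2 ratio of -0.16 and Fezf2 at -0.33. The cTEC markers were above 0 in 12 of 12, with a median of 0.32 and summed levels of 22369 CPM in control and 27374 in knockout cTEC, and the thymocyte markers with enough reads in 12 of 12, with a median of 0.38 and 403 and 533 CPM. The part of these markers in the genotype ratios was not tested.

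As a set, the promoters of the members held fewer CpG than promoters in general, though not in every family. RefSeq promoters were found for 114 of the 143 genes, and their median number of CpG in 300 bases was 2, where the median of all 32841 promoters was 7. Members were taken with 1 promoter each, the nearest to the deposited gene start. The set of all promoters was not cut to 1 per gene or to protein-coding genes, so the 2 sets are unlike in every share given here. At most 1 CpG was found in 43.0% of member promoters and in 14.1% of all, and more than 10 in 1.75% of member promoters and 41.4% of all. The family medians ran from 0 in the 3 casein promoters to 6 in the 8 mucin promoters. Only 1 of the 14 BPI fold promoters held at most 1 CpG, and that of Klk8 held 23. TATAAA, on either strand, was found in 28.1% of member promoters and 13.6% of all. It was found in 15 of 25 secretoglobin promoters and in 1 of 26 kallikrein promoters. Some of the secretoglobin matches lie on the other strand only, as in Scgb2b7, or after the start, as in Scgb1b27. A relation between the motif and detection was not tested. TGTTTAC, a forkhead-type motif, was found on either strand in 1.75% of member promoters, those of Muc20 and Reg4, and in 3.65% of all. None of the 3 motifs contains another, and no match in these 300 bases says only that the letters are not there.

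Genes that work beside these families in their home tissues were taken from fixed lists. In the control pair 19% of all genes with enough reads were higher in mTEC and 8.53% lower, and the counts on each list stand beside these shares. Of 13 goblet and mucous cell secretory genes, 10 had enough reads in the control pair and all 10 were higher in mTEC, among them Clca1 at a log2 ratio of 5.70, Tff3 at 5.63 and Zg16 at 3.91. Of the 21 enzymes that build mucin O-glycans, 17 had enough reads, 6 were higher and none lower, led by Gcnt4 (3.22), Gcnt1 (2.64) and Fut2 (2.12). Of 13 airway secretory cell genes 10 had enough reads, with 6 higher, including Sftpb (4.92), Lypd2 (3.99) and Sftpa1 (3.75), and Cbr2 lower (-2.50). Of 11 other epithelial antimicrobial genes 8 were higher and none lower, led by Ang4 (6.11), S100a8 (5.37) and Lyz1 (4.89). Of 12 salivary and lacrimal genes 6 had enough reads, with 5 higher, among them Dcpp1 with 154 reads in control mTEC and 1 in control cTEC, and Amy1 lower (-2.24).

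Milk and skin partners formed 2 further lists. Of 10 milk genes other than caseins 5 had enough reads in the control pair: Elf5 (2.88), Prlr (2.29), the prolactin receptor, and Stat5a (1.79) were higher in mTEC and Xdh (-1.67) lower. Lalba and Wap, whey protein genes, gave 1 and 30 reads in control mTEC, where Csn2 gave 7026. Of 10 protease partners of kallikreins 9 had enough reads, with 4 higher and none lower, led by Cdsn (6.30, with an interval of 4.37 to 12.19 from 131 reads against 1), Dsg1a (4.19) and Spink5 (1.23). Corneodesmosin (Cdsn) and desmoglein 1 (Dsg1a) are substrates of skin kallikreins, and Spink5 encodes an inhibitor of them. Of 10 regulators of promiscuous expression Aire (5.07), Fezf2 (2.71) and Sirt1 (1.78) were higher and none was lower. In the genotype comparisons none of these partner genes passed the rule in mTEC, and 1 did in cTEC, Serpina5, lower in knockout at -2.31.

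Markers of other cells were read in all libraries and also differed between mTEC and cTEC. In the control pair 5 of 5 B cell markers and 9 of 9 myeloid and dendritic cell markers with enough reads were higher in mTEC, with summed levels of 30.7 against 5.17 CPM and 325 against 78.1 CPM. Of 8 fibroblast and pericyte markers 3 were higher and 2 lower, of 5 endothelial markers 1 was higher and 1 lower, and of 12 thymocyte markers none was higher and 1 lower. Their part in the family levels was not tested. The cTEC libraries held mTEC markers too, summed to 3625 and 3285 CPM in control and knockout cTEC against 7346 and 7195 CPM in the corresponding mTEC. Such a sum is weighted to the most abundant markers. The median log2 ratio of mTEC to cTEC over the list was 2.01 in control and 2.15 in knockout, and that of Aire was larger in both. The part of such reads in the cTEC levels was not tested.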

How the data were processed

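RNA was sequenced from 4 libraries, mTEC and cTEC of SCD1 knockout and control mice, 1 per group, made with the NEBNext Ultra kit, per the labels' protocols. The values are whole-number read counts per gene as deposited. The submitters' processing notes name featureCounts 1.5.0-p3, HISAT2 2.0.5, CASAVA and the build mm10. Which annotation release was used, whether strand was counted and how multi-mapped reads were handled is not stated there or in the labels. Per the file headers the table also holds a gene length in bases, a column of another (other) unit, which was used for levels per kilobase. Coordinates of all 143 genes matched GENCODE M21.

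TMM factors (trimmed mean of M-values), computed with edgeR 4.0.16 in R 4.3.3, were 1.03, 1.03, 0.971 and 0.966 for control mTEC, knockout mTEC, control cTEC and knockout cTEC. Python 3.11.15 with pandas 2.3.3, numpy 2.4.6, scipy 1.17.1 and matplotlib 3.10.9 served for the rest. Log2 ratios used a prior count of 0.5 reads and exact conditional binomial (Clopper-Pearson) 95% intervals. Genes were counted with at least 50 reads over the pair, a log2 ratio of at least 1 in size and an interval that excluded 0, over all genes of the table, and the steps were tested on simulated data. Several reads can come from 1 molecule, so the intervals, and the floor of 3 counts (0.176, 0.171, 0.196 and 0.171 CPM in the order above), cover counting error only. No gene has a p-value, because no group has a replicate. Near-identical copies were found as 50-base stretches of GENCODE transcripts that occur in another gene elsewhere.

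Genes were named by a rule: all members past the size rule in any comparison, up to 5 per family by reads, up to 5 per comparison and direction by interval bound, and up to 3 per partner list. Klk11, Klk15, Klk1b24, Reg2, Reg3d, Muc16, Muc20, Bpifa3, Bpifb9a and, on the lists, Cbr2, Amy1, Xdh, Lalba, Wap, Serpina5 and Trp63 lie outside it and were named after their values were seen. The members, the lists and the rule were chosen with earlier results of these data known. Lacrt, on the salivary list, was not matched in the table. Alternatives covered scaling, read minimum, prior count, detection limit, length and near-identical members.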

Additional observations from a re-analysis of the deposited data

Results flagged for a closer look

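Some genes carry the family names without being classed as protein-coding, and so fall outside the 143 genes. Of 48 such genes, 14 had reads. The pseudogene Klk2-ps, at chr7:43916254-43921873 within the kallikrein row, gave 221 reads in control mTEC and 214 in knockout mTEC, with 2 in control cTEC and 4 in knockout cTEC. Muc19, classed as a processed transcript, gave 22 reads in each mTEC library. Klk1b7-ps gave 4 and 6 reads in control and knockout mTEC, Klk1b14-ps 4 reads in knockout mTEC and Scgb2b28-ps 6 reads in knockout mTEC. These values exceed the limit that a count of 0 allows, and apart from Klk2-ps and Muc19 they are close to it.

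Reg3g had a knockout to control log2 ratio of 0.24 in mTEC and -0.18 in cTEC, with intervals on opposite sides of 0. The difference between the populations was not tested.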

How the results depend on the processing

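With at least 1 read as the limit, 70 of the 143 genes were detected in each cTEC library, and with at least 3 reads 58 in control and 56 in knockout cTEC. Library totals in place of TMM gave family sums of 205 CPM for mucins, 203 for kallikreins, 450 for caseins and 304 for Reg genes in control mTEC. In knockout mTEC they gave 455 for caseins and 354 for Reg genes (454.502 and 354.394), and in knockout cTEC 354 for BPI fold genes. Family sums without their best-read gene, in control mTEC, knockout mTEC, control cTEC and knockout cTEC, were 130, 138, 66.3 and 70.4 CPM for mucins without Muc1 and 13.8, 15.4, 1.11 and 1.54 for mucin-like genes without Mucl2. They were 165, 197, 18.1 and 16.5 for kallikreins without Klk1 and 22.2, 23.4, 0.458 and 0 for caseins without Csn2. Beta-defensins without Defb1 came to 41.3, 54.2, 3.01 and 3.54, Reg genes without Reg3g to 26.9, 30.2, 3.14 and 1.08, and BPI fold genes without Bpifa1 to 60.8, 73.6, 2.88 and 3.59. Secretoglobins without Scgb1a1 came to 11.9 and 13.4 in mTEC. The BPI fold family is thus the one whose direction between mTEC and cTEC turned. A minimum of 200 reads left 19 members past the size rule between mTEC and cTEC in control and 24 in knockout, and no minimum gave 75 in control. Between genotypes in mTEC a minimum of 20 reads gave 4 members, 200 reads 0 and no minimum 5, and in cTEC 5, 0 and 12. The median ratio of mTEC to cTEC was 3.16 in control and 3.71 in knockout with a prior count of 2, 3.57 and 4.18 with 20 reads, and 3.10 and 3.86 with 200 reads. The median between genotypes in cTEC turned from -0.03 to 0.031 with 200 reads and to 0.00012 without near-identical members. Fewer genes enter at a higher minimum, and otherwise the cause was not tested. Among named genes, Defb1 (-0.996 in control, library totals) and Mucl3 (0.997 in knockout, prior count of 2) missed the rule, and no named ratio past the rule changed sign under the scaling and prior alternatives. No paired analysis was possible because each group has 1 library. At these depths 17 members had enough reads for the genotype comparison in cTEC and 70 in mTEC.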
